A study of Mus musculus with 29 samples.

Results

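Trimethylation of histone H3 at lysine 27 (H3K27me3) and gene expression were described together in the control pallium of E17.5 mouse embryos, an age late in cortical neurogenesis. The main results rest on the libraries with the letter C, 4 H3K27me3 ChIP-seq and 4 untreated RNA-seq libraries of the 29 in the series. Another 4 RNA-seq libraries, labelled WT and treated with vehicle, also at E17.5, were used only to read the same classes again. Each protein-coding gene was placed in a class from 0 to 4, the number of C libraries with a deposited H3K27me3 peak within 2000 bp of a transcript start. Of 21173 protein-coding genes, 15670 had such a peak in none of the libraries, 1889 in 1, 897 in 2, 1586 in 3 and 1131 in all 4. A peak in all 4 libraries was therefore found at 5.34% of the genes, and none in any library at 74.0%. The series compares E17.5 cortex of control mice with that of mice in which BAF155 (Smarcc1) and BAF170 (Smarcc2), core subunits of the BAF chromatin remodelling complexes, were deleted with a human GFAP promoter Cre. Its methods describe the controls as littermates that carried Cre with 1 floxed and 1 intact allele of each gene. All are of the strain C57BL/6J, and the tissue is labelled embryonic cortex. The deposited genotype label of the C samples reads BAF dcKO_hGFAP-Cre, the same as for the mutants, so the control status rests on the letter C, which the column names of the study's supplementary tables also carry. No genotype contrast was made here.

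H3K27me3 is deposited by Polycomb repressive complex 2 (PRC2), whose catalytic subunit is Ezh2 or Ezh1 and whose core partners are Eed and Suz12. It is read by the Cbx proteins of the canonical PRC1 complexes and is removed by the demethylases Kdm6a and Kdm6b. The mark is known for covering the CpG islands of developmental regulators, such as the Hox clusters, in cells that do not use them. In the developing cortex it marks genes of other regions and lineages, and also genes that are switched on or off as progenitors pass from making neurons to making glia.

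The levels of the targeted genes and of pallial markers are given first. In the C RNA libraries Smarcc1 was at 245, 261, 268 and 247 CPM (counts scaled to the size of the library), and Smarcc2 at 649, 695, 710 and 652 CPM, for replicates 1 to 4. The pallial markers Emx1, Pax6, Eomes, Tbr1, Neurod6 and Tubb3 each had a mean over 10 CPM, as had 47.0% of all protein-coding genes. The 4 RNA libraries held between 22509306 and 28391046 counts, so that 1 CPM corresponds to between 22.5 and 28.4 counts. The H3K27me3 libraries were less even. They held 2806857, 17731247, 2420911 and 28335352 tags after removal of duplicates for replicates 1 to 4, which is 13.7%, 61.5%, 12.3% and 62.2% of the sequenced tags. They had 28659, 13326, 9993 and 8354 peaks, with a median width of 351, 1021, 394 and 1258 bp, and all were called against the same input library. Replicates 1 and 3 thus had few tags and narrow peaks, and replicates 2 and 4 had many tags and wide peaks.

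A promoter peak was found at 4557, 3802, 1477 and 3129 genes in replicates 1 to 4. Replicates 2 and 4 shared 3015 genes, which is 79.3% of the genes of replicate 2 and 96.4% of those of replicate 4. Replicate 3 decided the size of the top class. Of its 1477 genes, 76.6% had a peak in all libraries, and 1511 of the 1586 genes with a peak in 3 libraries lacked it in replicate 3 alone. Most genes with a peak in 1 library, 1347 of 1889, had it in replicate 1. The classes from 1 to 3 therefore differ in library as well as in number, and the part of depth in them was not tested.

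Upstream sequences of 5 genes are shown as examples of genes with a peak in all 4 libraries and of a gene without one. Each is the 250 bases before the RefSeq start on GRCm38.p6, 5′ to 3′ on the strand of the gene, with each CG in capitals. Egr4 (chr6:85513590-85513839, minus strand) and Nup62cl (chrX:140062569-140062818, minus strand) had the highest mean fold enrichment among genes with a peak in all 4 libraries and under 1 CPM that were found in the RefSeq table. Npy (chr6:49822460-49822709, plus strand) and Agap2 (chr10:127078657-127078906, plus strand) were, of the genes found in that table, those with the highest CPM per kb in that class. Olfr1 (chr11:73399496-73399745, minus strand), an olfactory receptor gene, had no peak and no count in any library.
Egr4: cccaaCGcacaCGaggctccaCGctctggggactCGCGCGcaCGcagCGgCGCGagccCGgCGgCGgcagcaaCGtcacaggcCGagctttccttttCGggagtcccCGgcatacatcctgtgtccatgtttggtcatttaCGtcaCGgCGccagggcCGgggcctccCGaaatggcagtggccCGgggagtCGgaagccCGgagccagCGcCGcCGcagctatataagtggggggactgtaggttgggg
Nup62cl: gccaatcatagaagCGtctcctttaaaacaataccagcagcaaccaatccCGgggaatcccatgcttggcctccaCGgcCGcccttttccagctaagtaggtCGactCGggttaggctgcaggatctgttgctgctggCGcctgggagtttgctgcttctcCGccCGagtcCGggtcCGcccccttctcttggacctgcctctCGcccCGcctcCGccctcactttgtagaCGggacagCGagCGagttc
Npy: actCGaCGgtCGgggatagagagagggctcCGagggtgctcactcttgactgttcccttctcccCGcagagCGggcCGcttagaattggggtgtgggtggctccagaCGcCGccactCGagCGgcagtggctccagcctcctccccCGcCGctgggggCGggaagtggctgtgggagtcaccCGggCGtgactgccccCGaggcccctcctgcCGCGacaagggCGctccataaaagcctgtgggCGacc
Agap2: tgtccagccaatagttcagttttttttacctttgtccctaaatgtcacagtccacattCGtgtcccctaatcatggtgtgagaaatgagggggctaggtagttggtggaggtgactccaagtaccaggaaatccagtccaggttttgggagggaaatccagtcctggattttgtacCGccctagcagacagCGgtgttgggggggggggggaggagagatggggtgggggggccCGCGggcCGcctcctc
Olfr1: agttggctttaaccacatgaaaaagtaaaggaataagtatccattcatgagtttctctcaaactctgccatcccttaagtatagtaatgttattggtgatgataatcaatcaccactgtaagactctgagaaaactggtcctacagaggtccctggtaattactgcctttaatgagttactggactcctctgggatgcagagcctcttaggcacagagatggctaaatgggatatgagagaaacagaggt
Egr4 holds 28 CG dinucleotides in these bases, Npy 21, Nup62cl 17, Agap2 6 and Olfr1 none. Over 19805 such sequences of 16194 protein-coding genes in the table, the median was 10. It was also 10 over the 14407 sequences of genes without a peak, so Olfr1 is not typical of them. Over the 1111 sequences of genes with a peak in all 4 libraries it was 14. For Egr4, Nup62cl and Npy the printed bases lie inside the merged peaks, whereas for Agap2 the merged peak (chr10:127079448-127081138) lies beyond the start, within the gene.

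Expression was lower in the classes with more peaks, except that the class with 3 libraries was not below the class with 2. Levels of different genes were compared as CPM per kb of merged exons, since a long gene collects more counts. The median level was 2.47 CPM per kb for genes without a peak, 2.12 with a peak in 1 library, 0.80 in 2, 0.81 in 3 and 0.37 in all 4. In RNA replicates 1 to 4 the median was 2.50, 2.49, 2.53 and 2.43 CPM per kb without a peak, and 0.36, 0.40, 0.31 and 0.39 CPM per kb with a peak in all 4. These ranges did not overlap, and the ratio of the overall medians was 6.60. In mean CPM, without correction for length, the medians were 10.1, 9.69, 3.25, 3.91 and 1.42 for the classes 0 to 4. On both scales the class with a peak in 3 libraries was above the class with a peak in 2. At the upper end, 11.7% of the genes without a peak and 1.86% of those with a peak in all 4 libraries belonged to the 10% of genes with the highest CPM per kb.

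Silence did not follow the same order. A mean under 1 CPM was found for 38.4% of all protein-coding genes. It was found for 39.2% of the genes without a peak, 32.9% with a peak in 1 library, 38.4% in 2, 32.0% in 3 and 45.4% in all 4. The top class was between 44.1% and 46.9% in the single RNA libraries, and the class without a peak between 39.2% and 39.4%. This difference rests on H3K27me3 replicate 3. Without that library, 37.8% of the 2642 genes with a peak in all the others were under 1 CPM, against 39.3% of the genes with none, and their median was 0.58 CPM per kb. Genes with a peak in all libraries were thus often low but seldom at 0. A mean over 10 CPM was found for 26.9% of them, against 50.1% of the genes without a peak. No count in any RNA library was found for 92 of the 1131 genes with a peak in all 4, against 3415 of the 15670 without a peak. A count of 0 over the 4 libraries allows a level of up to 0.0308 CPM (3 counts, counting error only).

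**Figure D1:**
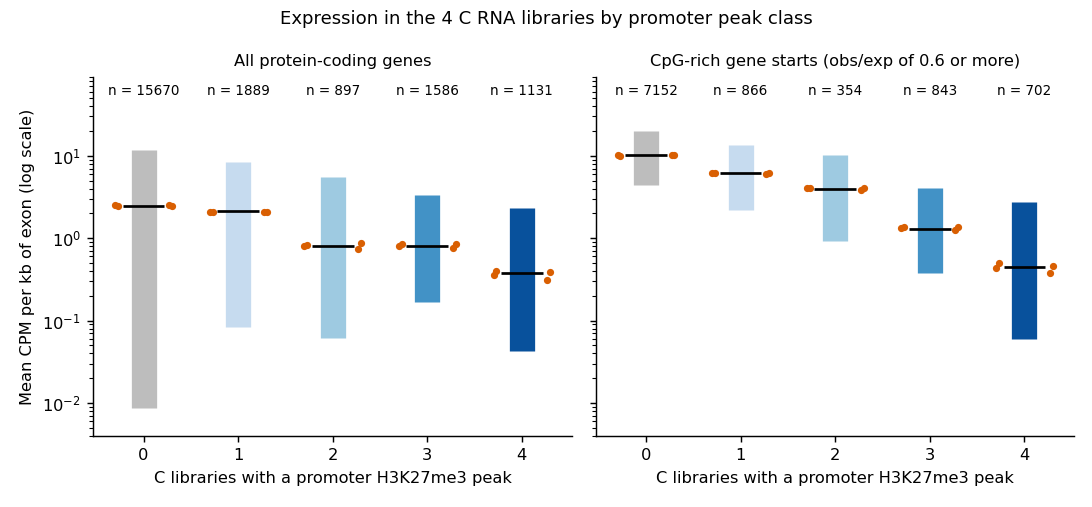
Mean CPM per kb of exon in the C RNA libraries (log scale) by the number of C libraries with a promoter H3K27me3 peak, for all protein-coding genes (left) and for genes with a CpG observed over expected of at least 0.6 (right). Bars span the 25th to 75th percentile of the genes, black lines are medians, and orange points are the medians in the 4 RNA libraries; the median goes from 2.47 to 0.37 on the left and from 10.2 to 0.44 on the right.

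The genes that were silent without a peak were a different kind from the genes that were silent with one. CpG observed over expected, within 500 bp on each side of the gene start, had a median of 0.17 in the 6143 genes under 1 CPM without a peak. It was 0.64 in the 513 genes under 1 CPM with a peak in all 4 libraries, close to the 0.67 of the expressed genes of that class. Expressed genes without a peak had a median of 0.73. In all, 4.95% of the silent genes without a peak and 58.3% of the silent genes with a peak in all 4 had a ratio of at least 0.6, here called CpG-rich.

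Within CpG-rich starts the classes separated at every step. This split was chosen after the base composition had been seen. The median was 10.2 CPM per kb over 7152 genes without a peak, then 6.24, 3.95 and 1.30 with a peak in 1, 2 and 3 libraries, and 0.44 over 702 genes with a peak in all 4. In RNA replicates 1 to 4 the top class was at 0.44, 0.50, 0.37 and 0.47 CPM per kb, and the class without a peak at 10.2, 10.05, 10.3 and 10.2. The share under 1 CPM was 4.25%, 8.31%, 12.7%, 20.5% and 42.6% for the classes 0 to 4. Among CpG-poor starts the direction was the opposite. Their median was 0.019 CPM per kb without a peak and 0.29 with a peak in all 4 libraries, and 68.6% and 49.9% of the genes were under 1 CPM. CpG content was taken only at the start of the gene record, whereas a peak could lie at any transcript start of the gene. In Rbfox3 (ratio 0.10) and Kcnip3 (0.25), for example, the merged peak lay away from the start of the gene record. What this adds to the split was not tested.

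Each H3K27me3 library taken alone gave a lower median with a peak than without over all genes, at 0.97, 0.67, 0.40 and 0.58 CPM per kb against 2.31, 2.44, 2.04 and 2.37. The share under 1 CPM was lower with a peak in replicates 1 (35.0% against 39.3%), 2 (37.5% against 38.6%) and 4 (38.2% against 38.4%), and higher in replicate 3 (45.2% against 37.9%). Split by CpG content, each library gave the directions described for the classes. Among CpG-rich starts, genes with a peak had a median of 1.96, 1.28, 0.75 and 1.07 CPM per kb in replicates 1 to 4, and genes without a peak 9.98, 9.68, 8.52 and 9.51. Among CpG-poor starts, genes with a peak had medians between 0.20 and 0.31 CPM per kb, and genes without between 0.025 and 0.042. The classes were then read against 4 RNA libraries of another experiment of the series, labelled WT and treated with vehicle, at the same age. There the medians were 2.47, 2.13, 0.81, 0.87 and 0.41 CPM per kb for the classes 0 to 4, and 44.3% of the top class were under 1 CPM.

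**Figure D2:**
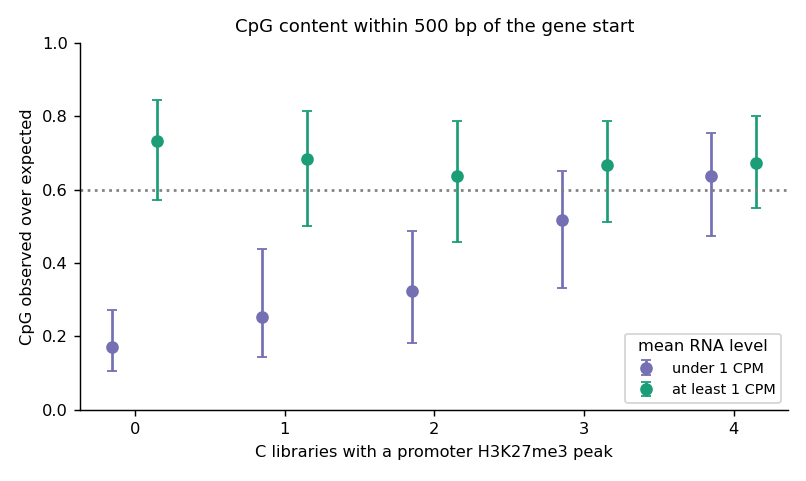
CpG observed over expected within 500 bp of the gene start (y axis) by promoter peak class (x axis), for genes under 1 CPM and genes of at least 1 CPM. Points are medians, bars span the 25th to 75th percentile of the genes, and the dotted line is 0.6; silent genes go from 0.17 without a peak to 0.64 with a peak in all 4 libraries, while expressed genes stay between 0.64 and 0.73.

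Regulators of body regions other than the telencephalon made up the clearest silent group. All 38 Hox genes, which set position along the trunk and hindbrain, had a peak in at least 3 libraries, 36 of them in all 4. Over all protein-coding genes, 5.34% had a peak in all 4 libraries. All 38 Hox genes were under 1 CPM, beside 38.4% over all protein-coding genes. Their summed level was between 0.0449 and 0.209 CPM in the RNA libraries, and 27 had no count in any of them. The 36 genes stand on 5 merged regions, so they are not 36 separate observations. The Hoxc region (chr15:102895774-103078359) spans 182586 bp and is the widest merged peak over any gene of the top class. Hoxc12 had a fold enrichment of 16.3, 6.80, 5.78 and 6.39 in replicates 1 to 4 and no count in any RNA library.

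Of 50 transcription factors of the diencephalon, midbrain, hindbrain and spinal cord, 43 had a peak in all 4 libraries and the other 7 in 3, beside 5.34% in all 4 over all genes. Of the 43, 37 were under 1 CPM and none was over 10 CPM. Over all genes with a peak in all 4 libraries, 45.4% were under 1 CPM and 26.9% over 10 CPM. Pax3, a regulator of the dorsal neural tube and neural crest, and Lbx1, of dorsal spinal neurons, had no count in any library, and neither had Evx1, of spinal interneurons. Pax3 had a fold enrichment of 5.83, 5.71, 4.66 and 5.44 in replicates 1 to 4, and Lbx1 of 15.3, 7.21, 6.12 and 6.58. The highest of this group per length was Barhl2, at 3.59, 4.99, 3.64 and 4.90 CPM, followed by Lhx5 at 5.005, 4.99, 4.78 and 3.55 CPM, a gene that is also used by Cajal-Retzius cells of the cortical marginal zone. Even these were low, at 1.85 and 1.70 CPM per kb.

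Regulators of lineages outside the nervous system were similar. Of 52 such factors, 39 had a peak in all 4 libraries, and 34 of these were under 1 CPM. Myod1, the skeletal muscle determination factor, and Gata4, of heart and endoderm, had a peak in all 4 libraries and no count in any. Gata4 had a fold enrichment of 7.88, 6.88, 5.43 and 6.40. The highest of the 39 was Prrx1, a mesenchymal factor, at 7.13, 8.10, 7.68 and 9.35 CPM or 0.73 CPM per kb. Eya1, with a peak in 3 libraries, was the only factor of the 52 over 10 CPM, with a mean of 14.2 CPM ± 0.65 (SD, n = 4). The 4 factors without any peak were silent too, and these were the muscle factors Myf5, Myf6 and Myog and the epidermal factor Trp63, with means between 0.0109 and 0.373 CPM. Muscle determination factors thus fell on both sides, with Myod1 under a peak and its relatives without.

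Genes of the ventral telencephalon and of GABAergic neurons, which migrate into the pallium from below, combined a peak with expression. Of 24 genes, 19 (79.2%, beside 5.34% over all genes) had a peak in all 4 libraries. The other 5, Sst and Gad2 among them, had it in 3. Of the 19, 13 were over 10 CPM, beside 47.0% over 10 CPM among all protein-coding genes, and only Gsx1 was under 1 CPM. Dlx1, a homeobox gene of GABAergic precursors, was at 218, 207, 190 and 180 CPM with a fold enrichment of 8.88, 5.54, 4.57 and 5.18. Lhx6, of interneurons from the medial ganglionic eminence, was at 113, 118, 118 and 116 CPM with a fold enrichment of 11.3, 5.86, 7.54 and 5.50. Both genes had values that varied little between the RNA libraries. Gad1, the enzyme that makes GABA, was at 127, 130, 89.1 and 124 CPM, and Slc32a1, which loads GABA into vesicles, at 27.9, 30.7, 22.6 and 25.8 CPM. Npy, a neuropeptide of interneurons, was at 39.4, 37.8, 52.9 and 33.1 CPM, which is 72.1 CPM per kb for this short transcript. Nkx2-1, which specifies the medial ganglionic eminence itself, was lower, at 3.29, 3.02, 2.23 and 3.33 CPM under merged peaks of 101154 bp. In bulk tissue, fewer cells of a type and less RNA per cell cannot be told apart, nor can it be told whether the RNA and the peak of a gene come from the same cells.

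Transcription factors of the pallium and its neurons were spread over all classes. Of 26 factors, 8 had a peak in all 4 libraries, 7 in 3, 3 in 2, 2 in 1 and 6 in none. The 8 were 30.8% of the list, beside 5.34% over all genes, and the 6 were 23.1%, beside 74.0%. Of the 26, 25 were over 10 CPM. Bhlhe22, Eomes, Cux2, Emx2, Cux1, Pax6 and Neurog1 were among the 8. Bhlhe22, of upper layer and area identity, was at 304, 228, 322 and 339 CPM with a fold enrichment of 7.52, 4.12, 5.74 and 3.94. Eomes (Tbr2), the marker of intermediate progenitors, was at 94.4, 112, 149 and 95.9 CPM, and Pax6, the marker of radial glia, at 45.2, 48.5, 61.7 and 44.5 CPM. Both stood under peaks in all 4 libraries. Neurog1 alone of the 26 was under 1 CPM, at 0.250, 0.306, 0.955 and 0.315 CPM. Among the 6 without a peak, Neurod6, a factor of postmitotic pyramidal neurons, was at 793, 682, 945 and 748 CPM. The median level was 13.9 CPM per kb for the 8 factors with a peak in all 4 libraries and 46.0 CPM per kb for the 6 with none, against 0.37 and 2.47 over all genes of these classes. The peak of Bhlhe22 covered the transcript start itself in 1 library.

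Secreted ligands of the Wnt, BMP, FGF and Hedgehog families had a peak in every case. Of 39 genes, 23 (59.0%, beside 5.34% over all genes) had it in all 4 libraries, 12 in 3 and 4 in 1. Of the 23, 13 were under 1 CPM and only Wnt7b and Gdf10 were over 10 CPM. Over all genes with a peak in all 4 libraries, 45.4% were under 1 CPM and 26.9% over 10 CPM. Wnt7b, a Wnt ligand of cortical neurons, was at 118, 119, 177 and 103 CPM with a fold enrichment of 7.67, 4.25, 3.77 and 3.66, and replicate 3 was the highest of its RNA values. Shh, the ventralizing ligand, was at 1.63, 1.36, 0.708 and 0.494 CPM, and Fgf8, the anterior patterning signal, had counts only in replicate 3, at 0.177 CPM. The cyclin-dependent kinase inhibitors differed within 1 family. Cdkn1c (p57) had a peak in all 4 libraries and 45.9, 42.3, 47.9 and 41.3 CPM. Cdkn2a, the Ink4a/Arf locus that brakes self-renewal, had a fold enrichment of 13.8, 6.13, 7.23 and 5.69 and a mean of 0.0727 CPM, under merged peaks of 50840 bp that also hold Cdkn2b. Cdkn1b (p27) and Cdkn2d had no peak, at means of 181.9 and 26.4 CPM.

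The 10 genes with the highest CPM per kb among those with a peak in all 4 libraries ranged from Bhlhe22 at 89.3 to Elavl2 at 30.2 CPM per kb. Beside the factors Bhlhe22 and Dlx1 and the peptide Npy, they included Agap2, Camk2b, Ppp2r2c, Abr, 1110004F10Rik and Elavl2. Camk2b, a subunit of a calcium-dependent kinase of synapses, was at 583, 567, 515 and 586 CPM with a fold enrichment of 6.56, 3.94, 4.60 and 4.24. Abr, a regulator of small GTPases, was at 500, 501, 473 and 479 CPM. Agap2, a GTPase-activating protein of neurons, was at 414, 400, 344 and 389 CPM, and in no library did a peak cover its start. These RNA values differed little between libraries while the fold enrichment of Agap2 went from 4.09 to 12.9. Camk2b has 8 transcript starts, Abr 9 and Elavl2 11, so that a peak near 1 start can stand beside RNA from another. 1110004F10Rik shares its peak with Sox6, whose start is within 2000 bp on the other strand.

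**Figure D3:**
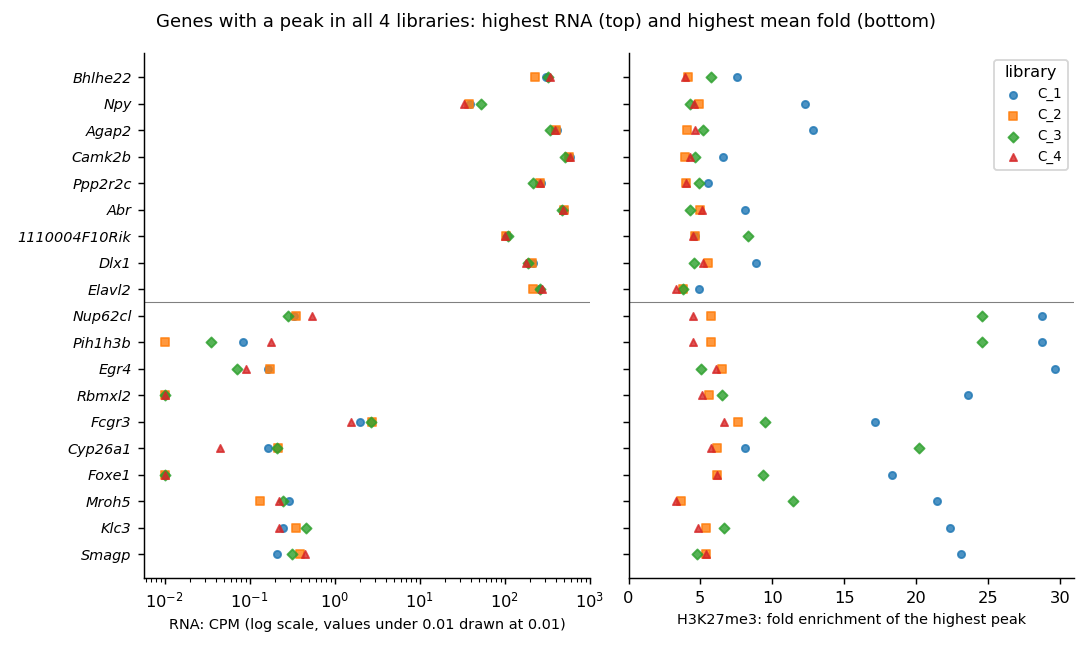
RNA level in the 4 C RNA libraries (left, CPM, log scale) and fold enrichment of the highest promoter peak in the 4 C H3K27me3 libraries (right), for 9 of the 10 genes with the highest CPM per kb and the 10 with the highest mean fold enrichment among genes with a peak in all 4 libraries. Each symbol is a library, and equal numbers are not stated to be the same embryo; the upper genes are between 33.1 and 586 CPM, Fcgr3 is the only lower gene over 1 CPM, and in most genes the largest fold is in C_1.

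The 10 genes with the highest mean fold enrichment in the top class were nearly all silent. Nup62cl and Pih1h3b, whose starts share a peak on chromosome X, led with a mean of 15.9 (28.7, 5.71, 24.6 and 4.47 in replicates 1 to 4). Egr4, an immediate early gene of active neurons, had 29.7, 6.51, 5.05 and 6.07 and a level of 0.167, 0.175, 0.0708 and 0.0899 CPM. Rbmxl2, a testis RNA-binding protein gene, and Foxe1, a thyroid factor, had no count in any library. Cyp26a1, which breaks down retinoic acid, Mroh5, Klc3 and Smagp had means between 0.161 and 0.343 CPM. Fcgr3, an Fc receptor of microglia and other myeloid cells, was the exception at 2.002, 2.76, 2.65 and 1.57 CPM. The mean fold is led by the 2 libraries with few tags. In 9 of these 10 genes, all but Cyp26a1, the largest value was that of replicate 1, the value of replicate 2 or 4 being at most 7.58.

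Within the top class, stronger and wider peaks went with lower RNA, most clearly in the deeper libraries. When the 1131 genes were ranked by fold enrichment in replicate 2 and divided into 4 equal groups, the share under 1 CPM was 26.2%, 34.3%, 48.1% and 72.8% from the weakest to the strongest. In replicate 4 it was 23.8%, 38.9%, 47.0% and 71.7%. In replicates 1 and 3 it went only from 40.4% to 49.8% and from 41.5% to 50.2%. By peak width, all 4 libraries gave a larger share in the widest group than in the narrowest, at 59.4% against 37.2%, 69.3% against 24.1%, 56.5% against 36.5%, and 69.6% against 25.2%. The median width of the merged peaks was 7600 bp over the 513 genes under 1 CPM, 4791 bp over 314 genes from 1 to 10 CPM and 4458 bp over 304 genes above 10 CPM. Position differed as well. A peak covered a transcript start in all 4 libraries for 46.6% of the genes under 1 CPM and for 34.2% of those above 10 CPM. The 43 genes whose peaks were near a start but covered none had a median of 3.75 CPM per kb, against 0.28 for the 483 genes with a start covered in all 4 libraries. Foxo1, Zfp423 and Agap2 were among these 43, with means between 32.1 and 386.6 CPM.

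**Figure D4:**
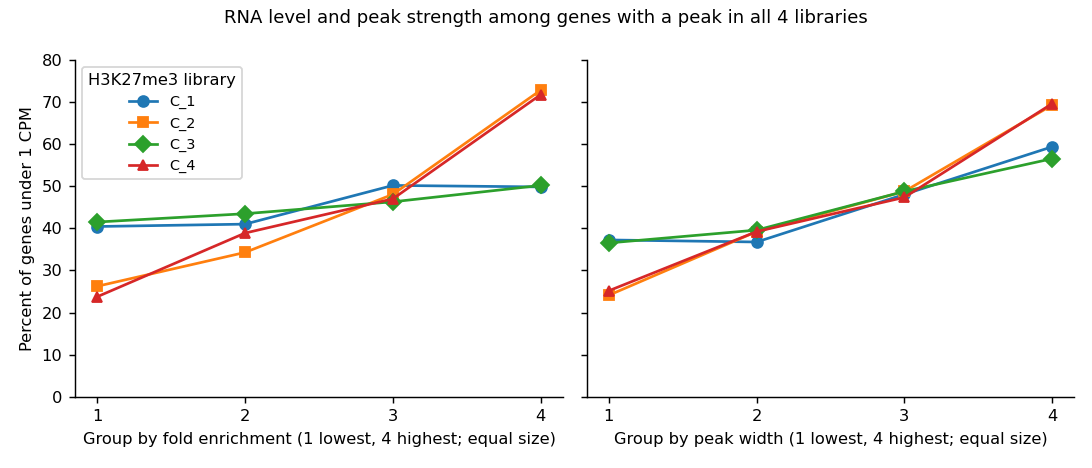
Percent of genes under 1 CPM (y axis) among the 1131 genes with a promoter peak in all 4 libraries, in 4 equal groups by fold enrichment (left) and peak width (right) within each H3K27me3 library. Lines are libraries; C_2 and C_4 go from under 27% to over 71% by fold enrichment, and C_1 and C_3 stay between 40.4% and 50.2%.

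The most highly expressed genes of the intermediate classes differed in how their peaks lay. In the class with 1 library, the highest were Tmsb4x (1027.9 CPM per kb), an actin-binding peptide gene on chromosome X with a peak only in replicate 2, and Dpysl3 (542.8) and Sbk1 (229.3), with a peak only in replicate 1. Sbk1 had a peak of 197 bp that covered no start. In the class with 2 libraries they were Ina (162.5 CPM per kb), a neuronal intermediate filament, H3f3b (160.7), a gene for histone H3.3, and Lsm14b (105.7). With 3 libraries they were Crmp1 (257.5 CPM per kb), Islr2 (170.5) and Neurod2 (117.3), and each of these lacked a peak in replicate 3. The merged peaks of Crmp1 spanned 3225 bp and covered a start in all 3 libraries with a peak, and those of Islr2 spanned 7805 bp and covered a start in 2. Neurod2, a factor of pyramidal neurons at 362, 356, 431 and 325 CPM, lay mostly under merged peaks of 11377 bp (chr11:98317996-98329372). These covered most of the gene (chr11:98325415-98329648, minus strand) but not its start.

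Large gene families divided the genes without a peak into silent and active ones. Of 1037 olfactory receptor genes, 957 (92.3%, beside 74.0% over all genes) had no peak and 3 had it in all 4 libraries. All 1037 were under 1 CPM, with 972 at 0. Of 288 vomeronasal receptor genes, 283 (98.3%) had no peak and 287 were under 1 CPM. Keratin and keratin-associated genes were under 1 CPM in 103 of 107 cases. Their share without a peak, 79 of 107 (73.8%), was not above the 74.0% over all genes. The median CpG observed over expected was 0.11, 0.10 and 0.24 in these families, against 0.66 in the Hox genes and 0.70 in the factors of the diencephalon to spinal cord. The active families without peaks were those that every cell uses. No peak was found at 77 of 82 cytoplasmic ribosomal protein genes, 44 of 46 respiratory complex I genes and 36 of 39 proteasome subunit genes. These shares were 93.9%, 95.7% and 92.3%, beside 74.0% over all genes. The median levels of these families were 13.7, 20.6 and 32.6 CPM per kb. Reads of ribosomal protein genes are shared with many pseudogene copies, so their counts are uncertain. Genes of these lists with a peak in 3 libraries were the immunoproteasome subunits Psmb8 and Psmb9, at 0.225 and 0.132 CPM, Ndufa4l2 at 2.19 CPM and Rpl26 at 36.8 CPM. Germline genes were silent in 18 of 24 cases, with a peak in all 4 libraries at none and no peak at 14 (58.3%, beside 74.0% over all genes). Zinc finger genes named Zfp lacked a peak in 327 of 389 cases (84.1%, beside 74.0% over all genes), and 262 were over 10 CPM.

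**Figure D5:**
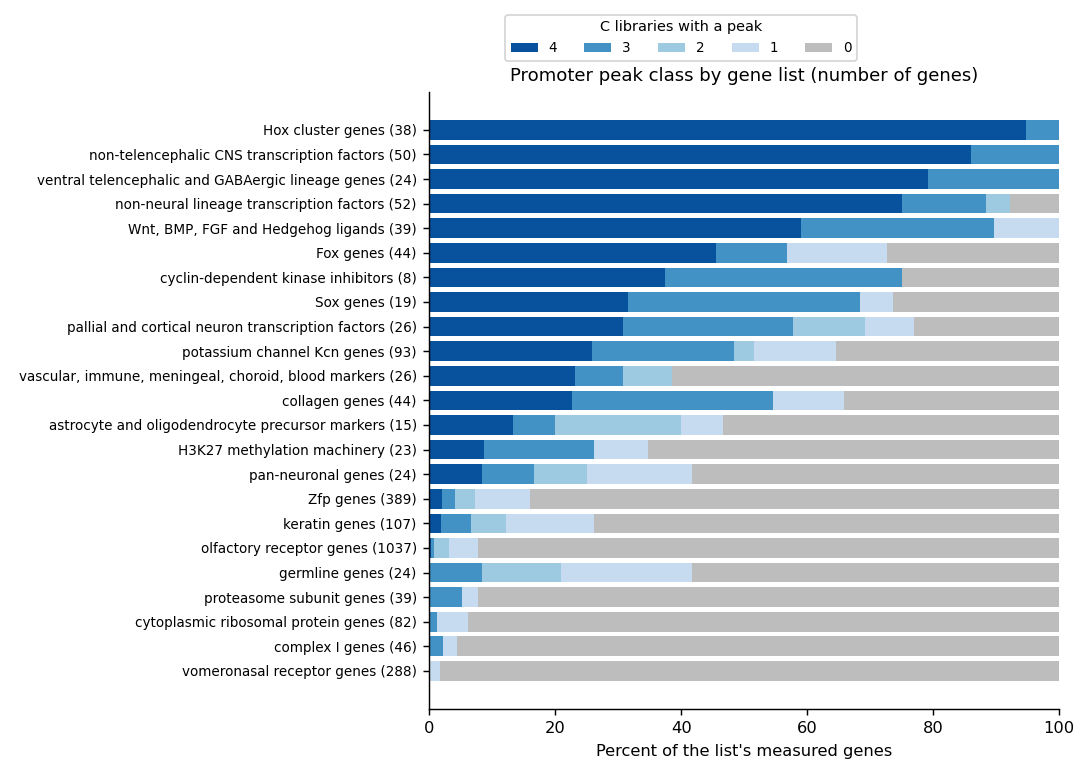
Percent of the measured genes of each list (x axis; number of genes in brackets) in the classes 0 to 4, the number of C libraries with a promoter H3K27me3 peak. Hox genes have a peak in all 4 libraries at 36 of 38 and vomeronasal receptor genes at 0 of 288; over all protein-coding genes the share is 5.34%.

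Families of mixed use lay in between. Of 44 Fox genes, 20 (45.5%) had a peak in all 4 libraries, beside 5.34% over all genes. Of the 20, 16 were under 1 CPM, beside 45.4% over all genes with a peak in all 4 libraries. Foxk2 without a peak was at 178 CPM. Of 19 Sox genes, 6 (31.6%) had a peak in all 4 libraries and 7 in 3. The latter included the neural stem cell factors Sox2 and Sox1 at 71.3 and 59.6 CPM. Sox4, Sox12 and Sox11, which act in new neurons, had none, at 272, 242 and 169 CPM. Potassium channel genes had a peak in all 4 libraries at 24 of 93 (25.8%) and in 3 at 21. Of the 93, 39 were over 10 CPM, beside 47.0% over 10 CPM among all protein-coding genes. Kcnc1, a fast delayed rectifier, was at 88.5, 79.6, 81.0 and 92.3 CPM with a peak in all 4. Collagen genes had a peak in all 4 libraries at 10 of 44 (22.7%) and in 3 at 14. Over all protein-coding genes, 1131 of 21173 had a peak in all 4 libraries and 1586 in 3.

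Genes common to all neurons were expressed in every case. Of 24, 14 had no peak (58.3%, beside 74.0% over all genes) and 2 had a peak in all 4 libraries (8.33%, beside 5.34%). All 24 were over 10 CPM, beside 47.0% over all protein-coding genes. Tubb3, neuronal beta-tubulin, was at 931 CPM per kb. The 2 with a peak in all 4 were Nefl, a neurofilament gene, at 73.7, 66.2, 52.6 and 78.5 CPM, and Rbfox3 (NeuN), at 111, 100, 97.3 and 93.2 CPM, both known as genes of more mature neurons. Rbfox3 (chr11:118489762-118911597, minus strand) has 7 transcript starts. Its merged peak (chr11:118567943-118572596) covers a start inside the gene, not that of the gene record. The H3K27 methylation machinery had no peak at 15 of 23 genes (65.2%, beside 74.0% over all genes). The PRC2 core was among these, with Ezh2 at 136, 142, 157 and 132 CPM, Suz12 at 115, 103, 112 and 109 CPM, and Eed at 26.98, 25.5, 31.2 and 28.1 CPM. Peaks in at least 3 libraries were found at 6 of the 23, among them genes for Cbx readers of the mark. Over all 21173 protein-coding genes, 1586 had a peak in 3 libraries and 1131 in all 4. Cbx7 had a peak in all 4 libraries, at a mean of 12.8 CPM, and Cbx2 and Cbx8 in 3, at 38.4 and 24.0 CPM. Bmi1 and Phf19 were also among the 6.

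Markers of other cell types in the tissue were measured in the same way. Of 15 markers of astrocytes and the oligodendrocyte lineage, 2 (13.3%) had a peak in all 4 libraries and 8 (53.3%) in none. These shares stand beside 5.34% and 74.0% over all genes. The 2 were Pdgfra and Sox10, of oligodendrocyte precursors. Pdgfra was at 47.8, 49.7, 38.9 and 54.9 CPM, and Sox10 at 6.05, 4.55, 4.71 and 5.66 CPM. Fabp7 (509 CPM) and Slc1a3 (241 CPM), of radial glia and astrocytes, had none. Of 26 markers of vessels, microglia, meninges, choroid plexus and blood, 6 (23.1%) had a peak in all 4 libraries and 16 (61.5%) in none. Over all genes these shares were 5.34% and 74.0%. Of the 26, 2 (7.69%) were under 1 CPM, beside 38.4% over all protein-coding genes. Cldn5, a tight junction gene of brain endothelium, was at 32.9, 38.2, 31.1 and 29.3 CPM with a fold enrichment of 3.66, 5.53, 4.80 and 4.86. The summed level of the 26 markers was between 473 and 620 CPM in the RNA libraries, and that of the 24 ventral and GABAergic genes between 875 and 1035 CPM. The part of these cells in the RNA of genes that also had a peak was not tested.

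Chromosome X ordered the libraries in another way than the autosomes, where 4469, 3610, 1405 and 3094 genes had a promoter peak in replicates 1 to 4. Peaks on it numbered 873, 1746, 790 and 66 in the same order, which is 3.05%, 13.1%, 7.91% and 0.79% of the peaks, and 76, 192, 71 and 35 of its 926 protein-coding genes had a promoter peak. On chromosome Y there were 878, 0, 73 and 0 peaks. A peak in replicate 2, replicate 3 or both, but in neither replicate 1 nor 4, was found at 163 X-linked genes. Their median was 19.5 CPM, and 99 were over 10 CPM, whereas the 682 X-linked genes without a peak had a median of 0.139 CPM. In RNA, Xist, the transcript that coats the inactive X of females, was at 0.876, 2051, 2329 and 10.6 CPM in replicates 1 to 4. The Y-linked Ddx3y was at 73.1, 0.0876, 0.354 and 56.7 CPM, and Kdm5d at 64.8, 0.0876, 0.283 and 60.0 CPM. Xist was thus high in the RNA replicates 2 and 3, and X peaks were most frequent in the ChIP replicate 2. The inactive X is known to carry H3K27me3, and whether the RNA and ChIP libraries of a number come from the same embryo is not stated. Only 12 X-linked genes were in the top class, and on the autosomes alone the medians were 2.79 CPM per kb without a peak and 0.38 with a peak in all 4 libraries.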

How the data were processed

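RNA was measured in 4 C libraries and H3K27me3 in 4 C libraries of E17.5 cortex, grouped by the letter in the sample titles. Per the methods of the study, STAR was the aligner for RNA-seq and mm10 the genome. The deposited count tables hold whole-number counts of reads per Ensembl gene, without normalization. Each table also ends in 5 rows that name no gene, which hold 0% of the counts. For ChIP-seq the authors removed duplicate tags and ran MACS2 2.1.0.20140616 per library in broad mode, with a q-value limit of 0.1 and 1 input library as background. The deposited peak lists give the pileup (signal in tags), the fold enrichment, which is a ratio to the background that MACS2 models, and the −log10 q-value. A gene without a peak may still carry the mark below that limit.

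From these files, 36602 of 38355 gene IDs were matched to GENCODE M21 (GRCm38, the same build as mm10), and 21173 were protein-coding on chromosomes 1 to 19, X and Y. Counts were scaled to CPM with TMM factors (edgeR 4.0.16 in R 4.3.3), averaged over the 4 libraries, and divided by the kb of merged exons. A peak counted where it reached within 2000 bp of a start of a transcript of the gene's own biotype. Peaks of the 4 libraries that overlapped were merged. Base composition came from the RefSeq GRCm38.p6 genome. Python 3.11.15, pandas 2.3.3 and numpy 2.4.6 were used.

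No test was run, since genes are not replicates and no groups of samples were compared; values are given with their spread over libraries. Whether the replicates are separate embryos is not stated in the labels, so the spread may be in part technical. The genes named were Smarcc1 and Smarcc2, the 10 with the highest CPM per kb, the 10 with the highest mean fold enrichment and the 5 with the widest merged peaks among genes with a peak in all libraries, and the 3 highest in CPM per kb with a peak in 1, 2 or 3. Of each list, the highest and the lowest member with a peak in all libraries and with none were set by rule; other list members named were chosen after their values were seen. Some genes are counted in their lists but not reported here by name. The members and lists were chosen with earlier results of these data known. The alternatives were other windows, transcript starts, peak limits, biotypes and scalings (DESeq2 1.42.0 size factors among them), and each library left out. Libraries of the mutants, the other treated libraries and H3K4me2 were not used here.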

Additional observations from a re-analysis of the deposited data

Results flagged for a closer look

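Among 139 sets of 4 library values, 24 had 1 library far from the other 3 (its gap over the range above Dixon's critical value for 4 values). Chance alone is expected to give this in about 1 in 20 sets, and the sets are not independent. That expectation does not hold for the 10 genes chosen by the highest mean fold enrichment, Egr4 among them. A single high library raises that mean and so can bring a gene into the list. Most of the 24 were fold enrichments at promoters of genes with a peak in all 4 libraries, where replicate 1 stood above the others. The median over the whole class was 9.14 in replicate 1 against 4.91, 4.83 and 4.62 in replicates 2 to 4. Single genes with such a value in replicate 1 were Egr4 (29.7), Rbmxl2 (23.6), Smagp (23.1), Klc3 (22.4), Neurog1 (16.3), Hoxc12 (16.3), Cdx1 (15.7), Kcnip3 (15.2), Fgf4 (13.3), Agap2 (12.9), Sox10 (12.8), Npy (12.3), Col13a1 (12.2), Col23a1 (11.4), Kcnk15 (9.96) and Wnt7b (7.67). Replicate 1 kept 2806857 tags, and replicate 3 kept 2420911.

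Replicate 3 stood apart at Cyp26a1 (20.2, against at most 8.09), at Hoxc4 (10.99, against at most 6.80), at 1110004F10Rik (8.28, against at most 4.63) and at Zfp385c (7.14, against at most 4.52). On chromosome Y, replicate 1 had 878 peaks, against 73 in replicate 3 and none in the other two. In RNA, Tubb3 was at 1898 CPM in replicate 3 against at most 1693 in the others, and Ppp2r2c at 218 CPM in replicate 3 against at least 258.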

How the results depend on the processing

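The median level was lower with a peak in all libraries than with none under each of 26 settings except genes of all biotypes. The larger share under 1 CPM in the top class was found under 21 of 24 settings and turned under 3. No paired analysis was possible because no result comes from a test, and libraries with the same number are not stated to come from the same embryo.

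With genes of all biotypes, 29169 genes had no peak; the medians were 0.065 CPM per kb without a peak and 0.20 with a peak in all (log2 ratio -1.65), and 64.9% and 55.5% were under 1 CPM (difference -9.46 percentage points); the cause was not tested. With only H3K27me3 replicates 2 and 4, 3015 genes had a peak in both, at 0.56 CPM per kb (log2 ratio 2.12), and 38.6% of them and 38.7% of the genes with none were under 1 CPM (difference -0.0398). With only replicates 1 and 3, the median without a peak was 2.31 CPM per kb. Leaving out each H3K27me3 library gave 1139 to 2642 genes in the top class, medians of 0.38 to 0.58 and 2.42 to 2.48 CPM per kb (log2 ratio 2.09 to 2.71), and 37.8% to 45.3% and 38.5% to 39.3% under 1 CPM (difference -1.44 to 6.68). The extreme in the top class was without replicate 3.

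In the following settings the value without a peak is given first. At a −log10 q of at least 2, the medians were 2.39 and 0.30 CPM per kb (log2 ratio 3.02) and the shares 39.0% and 49.0% (difference 10.1). With a window of 1000 bp, the medians were 2.42 and 0.33, and 39.3% of the genes without a peak were under 1 CPM. With the start of the gene record only, they were 2.42 and 0.32 (log2 ratio 2.92), with 46.9% of the top class under 1 CPM (difference 7.79). With all transcripts, 39.4% of the genes without a peak were under 1 CPM. With at least 500 bp of peaks in a window, 681 genes were in the top class, the medians were 2.40 and 0.26 (log2 ratio 3.18) and the shares 39.0% and 51.0% (difference 11.96). Among genes of at least 1 CPM, the medians were 9.11 and 1.98 CPM per kb (log2 ratio 2.20), and in CPM they were 10.1 and 1.42.

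Added after the data had been seen, autosomal genes gave a median of 2.79 CPM per kb and 38.0% under 1 CPM without a peak. CpG-rich starts gave 7152 and 702 genes, 10.2 and 0.44 CPM per kb (log2 ratio 4.53), and 4.25% and 42.6% (difference 38.3). Peaks that cover a start gave 483 genes in the top class, 2.37 and 0.28 CPM per kb (log2 ratio 3.06), and 39.0% and 49.5% (difference 10.5). Leaving out each RNA library gave medians of 2.47 to 2.50 and 0.35 to 0.40 CPM per kb (log2 ratio 2.63 to 2.84), and 44.9% to 45.4% of the top class were under 1 CPM. Size factors, library totals, the WT vehicle libraries and each RNA library left out moved none of these values by more than the spread between libraries. With a window of 5000 bp they also moved less than that. Replicate 3 of H3K27me3, with 2420911 tags kept, limits which genes can reach the top class.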

Other observations

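Genes of other biotypes were placed in the same classes. Antisense transcripts had a promoter peak in all 4 libraries at 105 of 1760 genes (5.97%) and processed transcripts at 39 of 537 (7.26%), beside 5.34% of protein-coding genes. Long intergenic non-coding RNAs had it at 63 of 1609 (3.92%), miRNA genes at 18 of 1372 (1.31%), and processed pseudogenes at 11 of 4348 (0.25%). Antisense transcripts often start near a protein-coding gene, so that both can share a peak.

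Which libraries held the peak went with the kind of gene as well as their number did. The 357 genes with a peak in replicates 2 and 4 only had a median of 1.56 CPM, and 45.1% were under 1 CPM. The 305 genes with a peak in replicates 1 and 2 only had a median of 7.80 CPM, and 25.6% were under 1 CPM. The 160 genes with a peak in replicates 1 and 3 only, the libraries with few tags, had a median of 0.46 CPM and a CpG observed over expected of 0.38. The 1347 genes with a peak in replicate 1 only had a median of 12.53 CPM and a CpG observed over expected of 0.61, against 10.1 CPM and 0.53 for genes without a peak. The 31 genes with a peak in replicates 2 and 3 only, of which 22 lie on chromosome X, had a median of 35.8 CPM.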
